A study of Mus musculus with 56 samples.

Results

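The comparison described here took female against male mice labelled as lacking HuR in skeletal muscle, with running wheels, over genes of the 19 autosomes. Its members were chosen by label and chromosome only: 7 females and 7 males of the 56 mice, and the 14975 autosomal genes among 15539 in the deposited count table. A filter on low counts left 13058 autosomal genes that could be tested, out of 13531 tested on all chromosomes. Gastrocnemius, a calf muscle made up largely of fast fibres in the mouse, was taken from C57Bl/6 mice of 5 months that ate chow 5015 and had wheels for 10 weeks, from week 10 to week 20. Both sexes carried floxed alleles of Elavl1, the gene of the RNA-binding protein HuR, and a Cre recombinase driven from the Mlc1f (Myl1) locus, which acts in muscle fibres and leaves HuR in the other cells of the tissue. The running controls of each sex had the same strain, diet, age and wheels, and the labels call them controls. By the labels, the knockout mice with locked wheels differed from the running ones in the wheel alone. Whether a running wheel was used by each mouse, and how far each mouse ran, was not given in the sources used here.

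Skeletal muscle differs between the sexes in size, in the mix of slow and fast fibres and in its handling of fat and glucose, and androgens and oestrogens act on many of its genes. Slow fibres carry the myosin of Myh7 and rely on mitochondria, whereas fast fibres carry the myosins of Myh2, Myh1 and Myh4 and, in the fastest of them, rely on glycogen and glycolysis. Polyamines are small charged molecules made from ornithine, and their synthesis in muscle is known to respond to androgens. HuR binds AU-rich stretches of messenger RNAs and affects how long they last.

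Total counts ran from 12149855 to 16690059 in the 7 females and from 8038666 to 14850682 in the 7 males. Levels are given as normalized CPM, that is, counts per 1000000 of the library after TMM scaling, and differences as log2 fold changes of females minus males, with a standard error (SE). The muscle genes Acta1 and Ckm were high in every mouse (19400 to 30600 and 9860 to 13900 CPM). Xist stood at 135 to 213 CPM in the females and 0.0809 to 0.983 in the males, and Ddx3y of chromosome Y at 0 to 0.298 and 101 to 133, so all 14 mice matched their labelled sex. Elavl1 did not mark the genotype in these counts. It stood at 49.8 to 63.7 CPM in knockout females and 54 to 71.6 in knockout males. Running controls had 50.2 to 62.8 in females and 28 to 61.8 in males, so here the knockout rests on the labels. The study itself reports less Elavl1 mRNA in gastrocnemius of knockout than of control mice. Some males stood apart from the rest. Liver markers summed to 643, 768 and 838 CPM in males 21, 22 and 6, and to 32.4 to 130 in the other 11 mice. Males 1 and 4 lay at 39.5 and 36.7 on the second principal component, where the other 12 mice lay between -20.1 and 11.6. Male 7 had 64 CPM of lymphocyte and other leukocyte markers, against 5.39 to 20.8 in the others. Where the calls of a list rose or fell by over 1.5 times without males 6, 21 and 22 or without males 1 and 4, both counts are given, in that order.

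Of the 13058 autosomal genes, 913 (6.99%) differed between the sexes at an adjusted p of 0.05 or less by limma, with p-values adjusted over all 13531 genes tested. Females were higher for 404 of them (3.09%) and males for 509 (3.9%). These are the shares to set beside the counts of each list below. The differences were mostly small, with a median log2 fold change of 0.59 for genes higher in females and -0.45 for those higher in males. A difference of 2-fold or more was seen for 91 genes higher in females and 61 higher in males. For 228 called genes the 7 females and the 7 males did not overlap, 80 with all females above and 148 with all males above, where 1.81% of all autosomal genes tested did not overlap. Without the 3 males with high liver markers 758 genes were called, 636 of them among the 913. Without males 1 and 4 there were 568 calls, 198 higher in females and 370 higher in males, and 461 of the 913 were among them. In each of the 14 fits that left out 1 mouse 643 to 1010 genes were called, and 499 of the 913 were called in all 14.

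**Figure D1:**
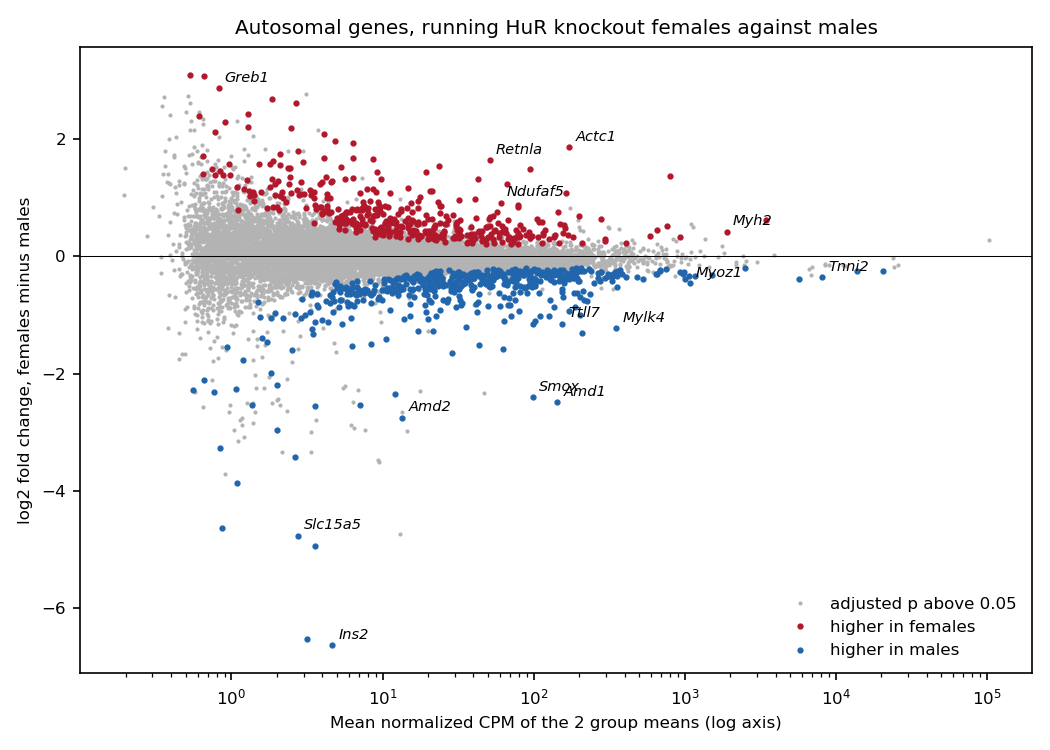
Log2 fold change of running HuR knockout females minus males (vertical axis) against the mean normalized CPM of both groups (horizontal log axis), 1 point for each of the 13058 autosomal genes tested. Red points are the 404 genes called higher in females, blue points the 509 called higher in males, and grey points the genes with an adjusted p above 0.05.

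Genes of polyamine metabolism that differed were higher in males. Of 12 autosomal members tested, 5 were called, all higher in males, and all 5 calls held whichever mouse was left out. The median log2 fold change of the 12 was -0.46, against 0.01 over all autosomal genes tested. Amd1 encodes S-adenosylmethionine decarboxylase, which supplies the aminopropyl groups for spermidine and spermine. Amd1 (ENSMUSG00000075232, chromosome 10, 40287458 to 40302186 on GRCm38) stood at 39.4, 40.1, 33.1, 28.5, 53.1, 52.0 and 37.7 CPM in the 7 females and at 207, 210, 164, 90.5, 350, 403 and 296 in the 7 males. Every male was above every female, and the log2 fold change was -2.49 (SE 0.21, adjusted p = 1.89e-10). Smox (chromosome 2, 131491496 to 131525922), spermine oxidase, which turns spermine back into spermidine, ran from 19 to 40.7 CPM in females (median 28.2) and from 98.7 to 299 in males (median 114). The sexes did not overlap, at a log2 fold change of -2.40 (SE 0.24, adjusted p = 1.57e-08). Oaz1, antizyme, which inhibits ornithine decarboxylase and targets it for breakdown, ran from 54.8 to 59.3 CPM in females and from 71 to 108 in males, at -0.63 (SE 0.09, adjusted p = 2.06e-05). Odc1, ornithine decarboxylase itself, ran from 1.67 to 4.99 CPM in females (median 3.07) and from 4.95 to 16 in males (median 8.21). Odc1 was named after its values were seen. Its highest female lay just above its lowest male, and its difference was -1.53 (SE 0.25, adjusted p = 9.69e-05). The fold changes differed widely between members, with Oaz1 far less apart between the sexes than Amd1 or Smox.

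The fifth of the called genes, Amd2 (chromosome 10, 35708675 to 35711892), is a copy of Amd1 on the same chromosome. It ran from 2.52 to 3.55 CPM in females and from 10.6 to 43.7 in males, at -2.75 (SE 0.35, adjusted p = 1.22e-06). Of the 50-base stretches of Amd2 transcripts 85.7% also occur in transcripts of Amd1, so reads of the 2 genes cannot be fully told apart and the Amd2 value is uncertain. The sequences around the starts of both genes are given from 250 bases before to 50 bases after the start. The windows (RefSeq, GRCm38.p6, minus strand) are chr10:40302139-40302438 for Amd1 and chr10:35711842-35712141 for Amd2. Capitals mark the longest run of bases that both windows hold, 48 bases.
Amd1: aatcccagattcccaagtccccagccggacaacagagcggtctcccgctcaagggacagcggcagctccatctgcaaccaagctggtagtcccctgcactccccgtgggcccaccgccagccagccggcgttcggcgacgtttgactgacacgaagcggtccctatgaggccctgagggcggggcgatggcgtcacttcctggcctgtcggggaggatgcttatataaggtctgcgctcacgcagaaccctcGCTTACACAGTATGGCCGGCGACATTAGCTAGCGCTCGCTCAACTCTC
Amd2: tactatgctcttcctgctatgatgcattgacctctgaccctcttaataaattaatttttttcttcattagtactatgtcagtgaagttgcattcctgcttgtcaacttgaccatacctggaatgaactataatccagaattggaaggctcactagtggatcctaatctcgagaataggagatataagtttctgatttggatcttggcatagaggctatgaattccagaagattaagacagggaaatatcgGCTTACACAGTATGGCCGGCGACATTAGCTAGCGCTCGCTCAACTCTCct
The shared run begins at base 253 of the Amd1 window and at base 251 of the Amd2 window, just past or at the start, so it lies in the transcribed part. Over the promoters of all autosomal genes tested, the letters AGAACA, a core sequence of elements for the androgen and glucocorticoid receptors, were found on either strand in 12.3% of 12428 windows. Such windows were on hand for 9678 of the 13058 genes, some with several. The letters occurred in 15.2% of 506 windows of genes higher in males and in 12.7% of 408 windows of genes higher in females. TATAAA, another short sequence counted in the same windows, was in 9.68% and 9.07% of them, against 7.44% of all. No test was run on these shares.

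**Figure D2:**
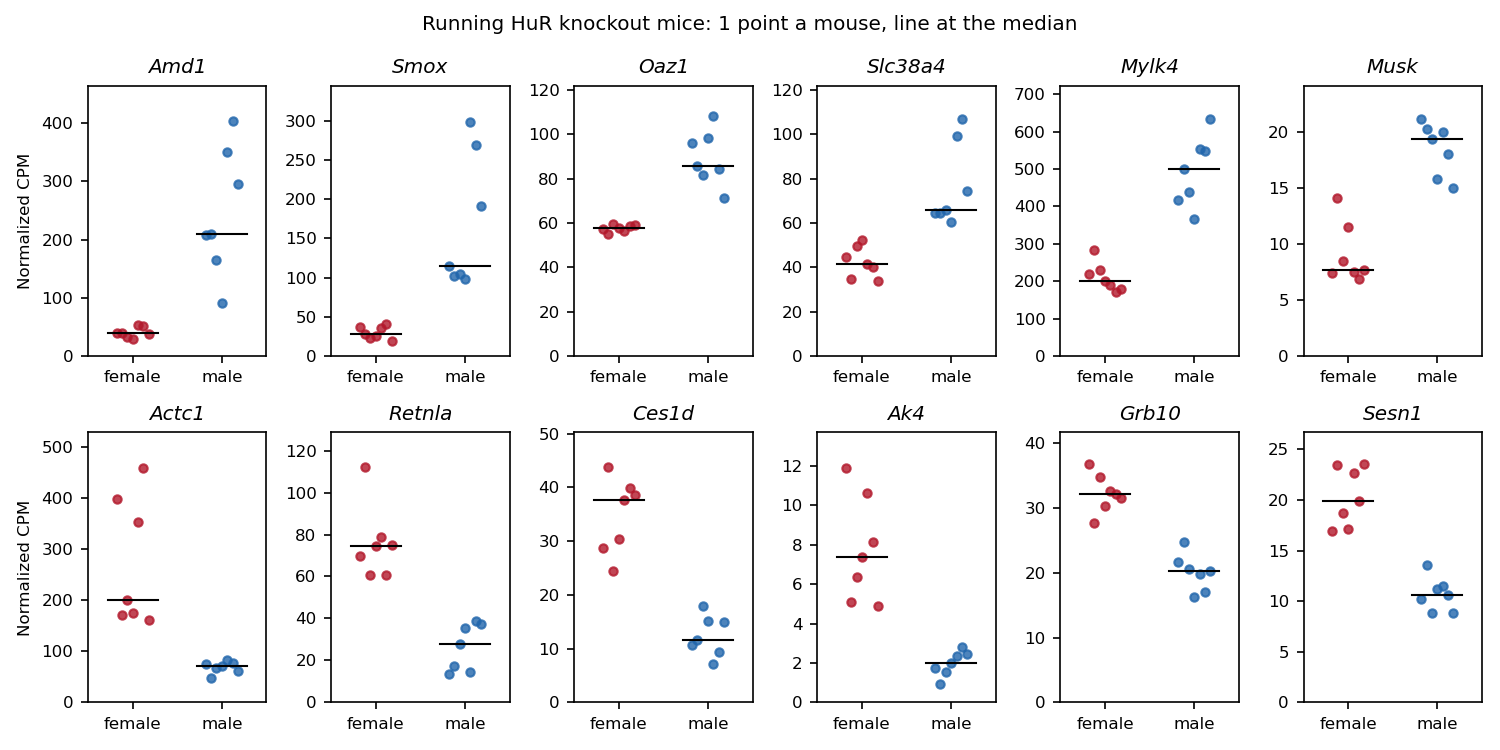
Normalized CPM (vertical axes, from 0) of 12 called genes in each of the 7 females and 7 males, 1 point a mouse, with a line at the group median. In all 12 panels the 2 sexes do not overlap; Amd1, Smox, Oaz1, Slc38a4, Mylk4 and Musk were higher in males and Actc1, Retnla, Ces1d, Ak4, Grb10 and Sesn1 in females.

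Slow-fibre contractile genes were higher in females and several fast-fibre genes higher in males, each with exceptions. Of 15 slow-fibre genes 7 were called higher in females and 2 higher in males, with a median log2 fold change of 0.48. Myl6b, an essential myosin light chain of slow muscle, ran from 3.76 to 5.32 CPM in females (median 4.70) and from 1.39 to 4.69 in males (median 2.07), a difference of 0.99 (SE 0.21, adjusted p = 0.00196). The slow troponin T gene Tnnt1 ran from 180 to 298 CPM in females (median 256) and from 80.2 to 226 in males (median 193), at 0.69 (SE 0.17, adjusted p = 0.00863). The regulatory light chain Myl2 differed by 0.64 (SE 0.16, adjusted p = 0.00868) and Atp2a2, the slow calcium pump of the sarcoplasmic reticulum, by 0.48 (SE 0.13, adjusted p = 0.014). Atp2a2 was not called without the 3 males with high liver markers (adjusted p = 0.0561). Myh7, slow myosin itself, was named after its values were seen. It ran from 98 to 144 CPM in females and from 42.5 to 120 in males, at 0.63 (SE 0.17, adjusted p = 0.0143). The sexes overlapped for all of these slow-fibre genes, with the lowest males well below every female.

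The members higher in males were Ankrd2 and Csrp3, both genes of proteins that respond to stretch and load in slow muscle. Ankrd2 (chromosome 19, 42036000 to 42045110) stood at 104, 91, 176, 102, 126, 116 and 112 CPM in the females and at 440, 298, 213, 344, 345, 331 and 138 in the males. Only the lowest male fell within the female range, and the difference was -1.30 (SE 0.18, adjusted p = 6.37e-06). Csrp3 ran from 40.9 to 115 CPM in females and from 60.4 to 225 in males, at -1.02 (SE 0.24, adjusted p = 0.0066). Neither was called in the running controls (-0.42 and -0.29, adjusted p = 0.15 and 0.524). Summed over the 15 slow-fibre genes, levels ran from 2295 to 3265 CPM in females and from 1452 to 3400 in males, so the sum did not separate the sexes although most of its members differed. The 9 calls became 6 without the 3 males with high liver markers and 8 without males 1 and 4.

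Among 19 fast-fibre genes 6 were called higher in males and 2 higher in females, with a median of -0.15. Mylk4 (chromosome 13, 32700834 to 32783954), a myosin light chain kinase family member, ran from 171 to 282 CPM in females (median 199) and from 365 to 633 in males (median 499), with no overlap and a difference of -1.23 (SE 0.16, adjusted p = 3.3e-06). Myoz1, a Z-disc protein of fast fibres that binds calcineurin, ran from 841 to 956 CPM in females and from 1042 to 1447 in males, again without overlap, at -0.46 (SE 0.08, adjusted p = 0.000169). The fast troponin I gene Tnni2 differed by -0.35 (SE 0.08, adjusted p = 0.00286) and Tpm1 by -0.25 (SE 0.06, adjusted p = 0.0109). Tpm1 was not called without males 1 and 4 (adjusted p = 0.0663). Myh2, the myosin of the more oxidative fast fibres, was higher in females, at 1873 to 2535 CPM (median 2233) against 1229 to 1961 in males (median 1631), a difference of 0.42 (SE 0.10, adjusted p = 0.00863). The myosins of the faster fibres were named after their values were seen and were not called: Myh1 differed by 0.06 (SE 0.12, adjusted p = 0.83) and Myh4 by -0.17 (SE 0.06, adjusted p = 0.105). Of the 50-base stretches of Myh1 transcripts 18.7% also occur in those of Myh2, so part of the reads of these myosins could have been counted for the neighbour. The fast-fibre calls numbered 8 without the 3 males with high liver markers and 4 without males 1 and 4.

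**Figure D3:**
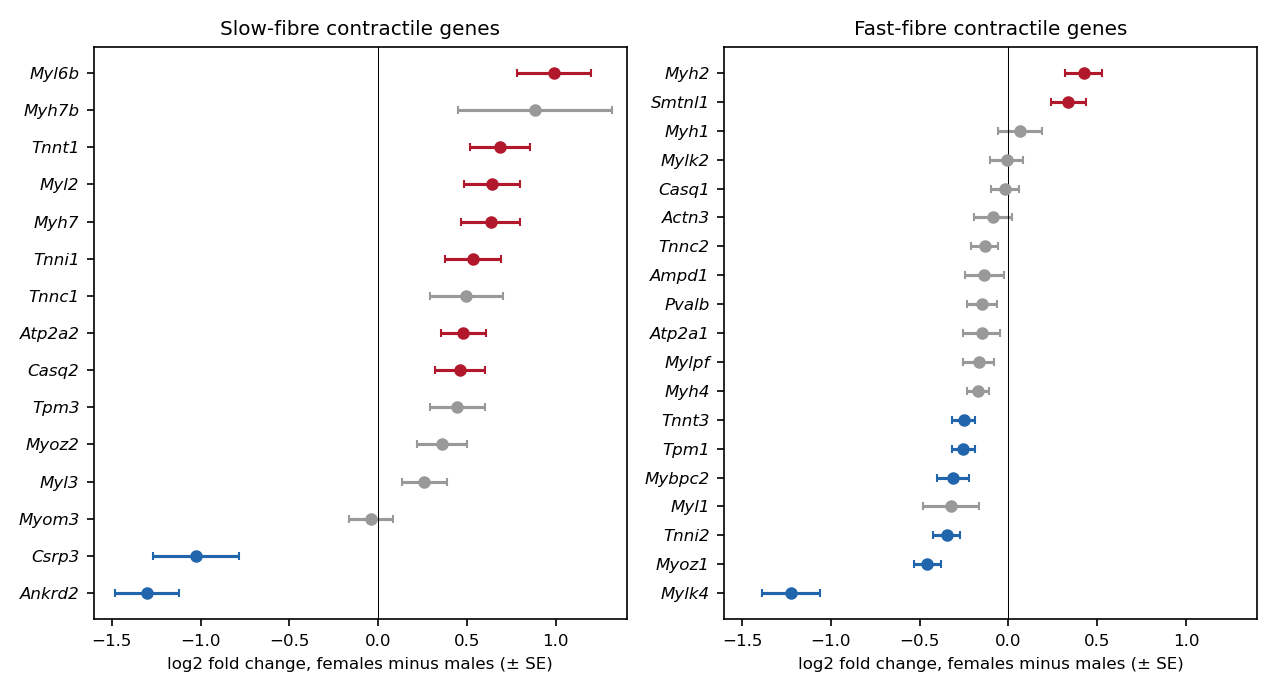
Log2 fold change of females minus males with its SE (horizontal axes) for each tested slow-fibre gene (left) and fast-fibre gene (right). Red marks genes called higher in females, blue genes called higher in males and grey genes not called; in the slow-fibre panel 12 of the 15 members are above 0 and in the fast-fibre panel 3 of 19.

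Actc1, the alpha-actin of heart and of developing skeletal muscle, was the only called gene among 5 developmental and extraocular muscle genes. It ran from 162 to 459 CPM in females (median 201) and from 48.1 to 83.5 in males (median 71.6), with no overlap and a difference of 1.87 (SE 0.21, adjusted p = 1.21e-07). In the same direction it was called in the running controls (2.18, adjusted p = 9.82e-10) and in the locked knockout mice (2.07, adjusted p = 1.01e-07). Of 23 sarcomere and Z-disc scaffold genes 4 were called, all higher in males, with a median of -0.15. The chaperone of myosin folding Unc45b, at -0.27 (SE 0.07, adjusted p = 0.0167), kept its call whichever mouse was left out, and the other 3 calls did not. With the 3 males with high liver markers left out 1 of the 4 was called and without males 1 and 4 none.

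In calcium handling, 4 of 19 excitation-contraction coupling genes were higher in males and 2 higher in females. Sarcolipin (Sln), a small inhibitor of the calcium pump, ran from 5.80 to 12.2 CPM in females (median 8.88) and from 1.46 to 7.36 in males (median 3.60), at 1.34 (SE 0.26, adjusted p = 0.000871). Myoregulin (Mrln), another small inhibitor of the pump, went the other way, at 104 to 140 CPM in females and 118 to 202 in males and -0.44 (SE 0.10, adjusted p = 0.00299). The chloride channel gene Clcn1, whose product stabilises the resting membrane, was also higher in males, at -0.33 (SE 0.08, adjusted p = 0.00863). Without the 3 males with high liver markers Clcn1 had an adjusted p of 0.0634. The sexes overlapped for all 3 genes.

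Genes of the neuromuscular junction were called only towards males, 4 of 15, with a median of -0.14. Musk (chromosome 4, 58285960 to 58374303), the muscle kinase that organises acetylcholine receptors at the synapse, ran from 6.86 to 14.1 CPM in females (median 7.67) and from 15 to 21.2 in males (median 19.4). The groups did not overlap, and the difference was -1.07 (SE 0.13, adjusted p = 9.9e-07). Dok7, the activator of MuSK, ran from 6.07 to 10.5 CPM in females and from 11.5 to 14 in males, at -0.54 (SE 0.12, adjusted p = 0.00315). The calls of Musk and Dok7 held whichever mouse was left out, and the other 2 of the list did not. The 4 calls became 2 and 3 without the males that stood apart.

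Glycolytic enzymes were higher in males in 4 of 18 cases and higher in females in 1. Pfkm, muscle phosphofructokinase and the main point of control of glycolysis, ran from 964 to 1115 CPM in females (median 1006) and from 1198 to 1527 in males (median 1246), with no overlap, at -0.34 (SE 0.07, adjusted p = 0.000931). Gpi1, glucose phosphate isomerase, was also without overlap, at 198 to 254 against 278 to 342 CPM and -0.36 (SE 0.07, adjusted p = 0.00156). Ldhb, the lactate dehydrogenase subunit typical of oxidative tissue, had every female above every male, at 150 to 216 against 94.5 to 143 CPM and 0.56 (SE 0.11, adjusted p = 0.00125). Glycogen genes followed with 5 of 17 called higher in males and 2 higher in females. Phkb, a subunit of phosphorylase kinase, differed by -0.38 (SE 0.09, adjusted p = 0.00584), while Ppp1r3d, a subunit that brings protein phosphatase to glycogen, was higher in females by 0.85 (SE 0.21, adjusted p = 0.0114). Muscle glycogen phosphorylase (Pygm) was called at -0.38 (SE 0.11, adjusted p = 0.0234), but not when female 8 or male 4 was left out (adjusted p = 0.0696 and 0.0685). Only 2 of the 7 glycogen calls held whichever mouse was left out, against 4 of the 5 in glycolysis. The 7 glycogen calls became 5 without the 3 males with high liver markers and 3 without males 1 and 4. A further fit took the mean log2 level of the adipocyte markers as a covariate. Most of these markers were themselves called between the sexes, so the covariate was tied to sex. This fit called 1 of 17 glycogen genes, with an adjusted p of 0.142 for Phkb and 0.088 for Ppp1r3d. Of the 18 glycolytic genes it called 2, with adjusted p-values of 0.062 for Pfkm, 0.15 for Gpi1 and 0.002 for Ldhb.

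Of 25 genes of insulin signalling and glucose uptake, 2 were called in each direction. Grb10 (chromosome 11, 11930508 to 12038683), an adaptor that restrains the insulin receptor, ran from 27.6 to 36.8 CPM in females (median 32.1) and from 16.3 to 24.8 in males (median 20.3), at 0.69 (SE 0.09, adjusted p = 1.52e-06). Irs1, the main substrate of that receptor, ran from 113 to 168 CPM in females and from 72.2 to 119 in males, at 0.59 (SE 0.11, adjusted p = 0.00077). Slc2a3, a high-affinity glucose transporter, was higher in males without overlap, at 2.76 to 5.83 against 0.744 to 2.27 CPM and -1.6 (SE 0.33, adjusted p = 0.00156). The insulin-responsive transporter Slc2a4 was called at -0.27 (SE 0.08, adjusted p = 0.0392), a call lost in 8 of the 14 fits without 1 mouse, where its adjusted p reached 0.0943. Without the 3 males with high liver markers it was 0.163.

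Genes of fat handling were called mostly towards females, and those of mitochondrial respiration were not called. Of 28 lipid synthesis and storage genes 5 were higher in females and 2 in males. Acaca, acetyl-CoA carboxylase, the committed step of fatty acid synthesis, ran from 9.38 to 31.3 CPM in females (median 14.1) and from 4.83 to 8.60 in males (median 6.88), with no overlap, at 1.08 (SE 0.21, adjusted p = 0.000983). Elovl6, which lengthens the fatty acids made, ran from 3.75 to 13.3 CPM in females and from 0.901 to 3.22 in males, at 1.68 (SE 0.38, adjusted p = 0.00483). Fasn, fatty acid synthase, stood at 26.6, 61.6, 86.9, 158, 52.7, 30.3 and 33.2 CPM in females and at 16.3 to 33.5 in males, at 1.32 (SE 0.34, adjusted p = 0.0133). Female values of Fasn were spread widely and the 3 lowest fell within the male range. Lpin1, lipin, which acts in triglyceride synthesis and as a coactivator, was higher in males, at -0.42 (SE 0.10, adjusted p = 0.00531). The 7 calls became 5 without the 3 males with high liver markers and 2 without males 1 and 4. Elovl6, Fasn and Lpin1 were not called in the latter (adjusted p = 0.0704, 0.0785 and 0.0534). With adipocyte markers as a covariate 1 of the 28 genes was called, with adjusted p-values of 0.0271 for Acaca, 0.108 for Elovl6, 0.171 for Fasn and 0.111 for Lpin1.

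Of 33 fatty acid uptake and oxidation genes 3 were higher in females and 1 in males. That was 12.1% of them, against 6.99% of all autosomal genes tested. Lpl, the lipase that frees fatty acids from circulating lipoproteins, ran from 674 to 1102 CPM in females (median 971) and from 469 to 799 in males (median 602), at 0.53 (SE 0.12, adjusted p = 0.00407). Lipe, hormone-sensitive lipase, ran from 31.3 to 49.4 CPM in females and from 19.4 to 32.3 in males, at 0.55 (SE 0.13, adjusted p = 0.00778). Lipe is also an adipocyte marker, and with the adipocyte markers as a covariate its adjusted p was 0.608, whereas that of Lpl was 0.0184. Lipe was not called without males 1 and 4 either (adjusted p = 0.0718), and the 4 calls of the list became 3 and 2 without the males that stood apart. Of 28 citric acid cycle and pyruvate dehydrogenase genes 2 were higher in females and 1 in males, or 10.7% of them. The 3 calls became 1 and 1 without the males that stood apart. Pyruvate carboxylase (Pcx), which refills the citric acid cycle, ran from 18.7 to 42.9 CPM in females (median 26.6) and from 9.56 to 19.3 in males (median 12.2), at 1.12 (SE 0.14, adjusted p = 1.15e-06). Of the 72 nuclear-encoded respiratory chain subunits tested 0 were called by limma, by DESeq2 or by edgeR's quasi-likelihood test, 14 had an unadjusted p under 0.05, and their median was 0.02. The most abundant of them by CPM were Cox6a2, a subunit of cytochrome c oxidase, at 1580 to 2208 CPM in females and 1405 to 1948 in males (0.18, SE 0.07, adjusted p = 0.0971), and Atp5g3, a subunit of ATP synthase (0.09, SE 0.06, adjusted p = 0.441). Among 26 PGC-1 coactivators and mitochondrial regulators 0 were called by the same 3 tools, 3 had an unadjusted p under 0.05, and the median was 0.04. Leaving out males 1 and 4 gave 2 calls among the respiratory chain subunits and 1 among the regulators.

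Glucocorticoid-responsive genes were called in both directions, 2 of 19 in each, and all 4 calls held whichever mouse was left out. Sgk1, a kinase induced by glucocorticoids, ran from 37.2 to 79.5 CPM in females (median 70.8) and from 96.5 to 196 in males (median 134), with no overlap, at -1.16 (SE 0.20, adjusted p = 0.00019). Fkbp5, a co-chaperone of the receptor, ran from 9.08 to 18.6 CPM in females and from 17.2 to 62.2 in males, at -1.02 (SE 0.23, adjusted p = 0.00338). Klf15, a transcription factor of amino acid and lipid metabolism, had every female above every male, at 10.8 to 22 against 8.18 to 10.7 CPM and 0.81 (SE 0.13, adjusted p = 8.16e-05). The receptor gene Nr3c1 was also higher in every female, at 118 to 148 against 96.4 to 103 CPM and 0.37 (SE 0.07, adjusted p = 0.00104).

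Of 29 genes that control growth, mass and atrophy 4 were higher in females and 2 in males, and 0 of 17 myogenic and satellite cell genes were called by limma or the quasi-likelihood test. DESeq2 called 1 of those 17, 5 had an unadjusted p under 0.05 in limma, and their median was -0.03. Without the 3 males with high liver markers limma called 1. Sesn1 (chromosome 10, 41809935 to 41908424), sestrin, which restrains mTORC1, ran from 16.9 to 23.5 CPM in females (median 19.9) and from 8.83 to 13.6 in males (median 10.6), without overlap, at 0.91 (SE 0.11, adjusted p = 9.73e-07). Igfbp6, a binding protein of insulin-like growth factors, was higher in females by 0.56 (SE 0.13, adjusted p = 0.00417). Myostatin (Mstn), the secreted brake on muscle growth, ran from 27.7 to 57.8 CPM in females and from 39.2 to 74.2 in males, at -0.53 (SE 0.14, adjusted p = 0.0128). Without males 1 and 4 the 6 calls of growth and atrophy genes became 1, and Igfbp6 and Mstn were not called (adjusted p = 0.0855 and 0.0762). Without the 3 males with high liver markers 4 were called, and with adipocyte markers as a covariate 1. Among 28 amino acid transport and breakdown genes 4 were higher in females and 3 in males. The amino acid transporter Slc38a4 ran from 33.6 to 52.2 CPM in females and from 60.4 to 107 in males, at -0.84 (SE 0.13, adjusted p = 2.8e-05), and Dbt, a subunit of the branched-chain ketoacid dehydrogenase, was higher in females by 0.53 (SE 0.12, adjusted p = 0.00311). The 7 calls of this list became 4 and 5 without the males that stood apart.

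Redox and detoxification genes held 5 calls towards males and 3 towards females among 34. Cbr2, a carbonyl reductase, ran from 22 to 55.4 CPM in females and from 57.6 to 112 in males, at -1.10 (SE 0.18, adjusted p = 9.69e-05). The microsomal glutathione transferase Mgst1 ran from 12 to 20.4 CPM in females and from 21.7 to 43.8 in males, at -0.92 (SE 0.14, adjusted p = 2.54e-05), and Gclc, the catalytic subunit that starts glutathione synthesis, differed by -0.54 (SE 0.11, adjusted p = 0.00104). Gstm2, another glutathione transferase, went the other way, at 32.8 to 40.9 against 20.7 to 29 CPM and 0.59 (SE 0.08, adjusted p = 1.02e-05). Gpx3, the secreted glutathione peroxidase, was higher in females by 0.76 (SE 0.14, adjusted p = 0.000331). The sexes did not overlap for these 5 genes. Proteasome subunits were called only towards males, 4 of 31, led by Psmd8 of the regulatory particle, at 113 to 159 CPM in females and 188 to 355 in males and -1.0 (SE 0.11, adjusted p = 6.43e-08); of the other 3 calls, none held in all 14 fits without 1 mouse. The 4 proteasome calls became 2 without the 3 males with high liver markers and 1 without males 1 and 4.

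Among sex-steroid receptors, enzymes and cofactors 2 of 14 were higher in females and 1 in males. Greb1 (chromosome 12, 16670615 to 16800886), a gene induced by oestrogen receptors, had the largest difference of the genes that did not overlap and were higher in females. Its levels were low, from 0.737 to 2.60 CPM in females (median 1.4) and from 0 to 0.404 in males (median 0.153), at 2.87 (SE 0.63, adjusted p = 0.00303). The receptor coactivator Ncoa3 was higher in males, at -0.38 (SE 0.09, adjusted p = 0.00561).

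The other genes with the largest differences towards females were of several kinds. Mmp3, stromelysin, a protease of the extracellular matrix, ran from 2.46 to 5.71 CPM in females and from 0.365 to 1.44 in males (2.19, SE 0.38, adjusted p = 0.000206). Ak4, an adenylate kinase of mitochondria, ran from 4.91 to 11.9 CPM in females (median 7.36) and from 0.92 to 2.83 in males (median 1.98), at 1.97 (SE 0.31, adjusted p = 4.39e-05). Retnla, a secreted product of alternatively activated macrophages and of fat, ran from 60.5 to 112 CPM in females (median 74.3) and from 13.7 to 38.7 in males (median 27.7), at 1.65 (SE 0.20, adjusted p = 8.53e-07). Ces1d, a carboxylesterase that can hydrolyse triglyceride, ran from 24.4 to 43.8 CPM in females and from 7.14 to 18 in males, at 1.54 (SE 0.19, adjusted p = 5.35e-07). Aff3 (1.68), Abcc8, a subunit of potassium channels sensitive to ATP (1.55), and Gm15337 (1.53) completed this group with Actc1, Elovl6, Cfd and Cuzd1. Cuzd1 differed by 1.58 (SE 0.48, adjusted p = 0.0366) and lost its call in 8 of the 14 fits without 1 mouse, namely without females 2, 3 and 22 and without males 2, 4, 7, 21 and 22, where its adjusted p reached 0.0728. Gm15337 lies antisense to another gene, and since the use of strand in counting was not given in the sources used here, its level is uncertain.

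The largest differences towards males were in genes at low levels, and 5 of the 9 named next had at least 1 female with no counts. The transcript 1700001O22Rik ran from 0 to 0.447 CPM in females and from 3.06 to 12.1 in males (-4.95, SE 0.75, adjusted p = 2.89e-05). Slc15a5, of a family of peptide transporters, ran from 0 to 0.307 CPM in females and from 1.98 to 12 in males (-4.77, SE 0.82, adjusted p = 0.000207). The antisense transcript Irx3os (-4.64), the complement gene C7 (-3.87), the zinc transporter Slc30a2 (-3.42), the potassium channel gene Kcnf1 (-2.97), Tfcp2l1 (-2.55), Actr3b (-2.54) and Mchr1 (-2.53), the receptor of melanin-concentrating hormone, followed. All 7 were also called with males higher in the running controls and in the locked knockout mice. Irx3, the neighbour whose antisense side Irx3os covers, was higher in males as well (-1.5, adjusted p = 1.13e-07), and the 2 cannot be told apart without strand. The fitted fold changes of genes with 0 counts in some females depend on the prior count, and are no bound. The genes with the smallest adjusted p were mostly others. Named after their values were seen, Ttll7 (-1.15, SE 0.09, adjusted p = 8.4e-11), of the family that adds glutamate to tubulin, and Rab12 (-0.77, SE 0.07, adjusted p = 3.33e-09), a small GTPase of membrane traffic, were higher in males. Ndufaf5, an assembly factor of respiratory complex I, had the smallest adjusted p among genes higher in females (0.92, SE 0.09, adjusted p = 3.43e-08).

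The 2 insulin genes stood out by their pattern over the groups. Ins1 had 73, 58, 50, 68, 58, 106 and 91 counts in the 7 running knockout males and 0, 0, 1, 0, 3, 1 and 0 in the 7 females. Ins2 had 124, 76, 136, 128, 76, 121 and 92 counts in the males and 0 to 2 in the females. Insulin is made in the pancreas, and of the other pancreatic genes listed only Sst was in the table, at 0.0751 to 0.357 CPM in the males and 0 to 0.671 in the females. The fitted differences were -6.53 (SE 0.73, adjusted p = 1.58e-07) for Ins1 and -6.63 (SE 0.80, adjusted p = 6.2e-07) for Ins2. In the 7 locked knockout males Ins1 had 0 or 1 counts and Ins2 0 to 4. Of the 7 running control males 1, number 28, had 86 counts of Ins1 and 108 of Ins2, and the other 6 had at most 3 and 6. Over the 48 mice other than the running knockout males and that control, the highest counts were 3 for Ins1 and 6 for Ins2. The source of these reads was not tested.

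Markers of connective tissue cells were called mostly towards females. Of 16 fibroblast and fibro-adipogenic markers 10 were higher in females and 2 in males, with a median of 0.38. Pi16, a marker of one fibroblast population, ran from 16.5 to 27.5 CPM in females (median 22) and from 7.58 to 17.4 in males (median 13), at 0.94 (SE 0.17, adjusted p = 0.000249). Clec3b, tetranectin, ran from 29.4 to 41.3 CPM in females and from 14.1 to 29.1 in males, at 0.70 (SE 0.14, adjusted p = 0.0013), and Sfrp4, a secreted antagonist of Wnt, differed by 2.10 (SE 0.42, adjusted p = 0.0013). Against these, Hsd11b1, which regenerates active glucocorticoid, had every male above every female, at 4.99 to 11.6 against 2.55 to 4.48 CPM and -1.15 (SE 0.22, adjusted p = 0.000591). The chemokine gene Cxcl14 did so too, at 34.8 to 48 against 22.1 to 33.1 CPM and -0.56 (SE 0.10, adjusted p = 0.000505). In a bulk sample fewer cells of a type and less RNA per cell cannot be told apart.

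Extracellular matrix remodelling genes were higher in females in 9 of 31 cases and higher in males in 1, with a median of 0.27. Fibronectin (Fn1) ran from 50.8 to 81.4 CPM in females (median 70.7) and from 30 to 63.8 in males (median 43.1), at 0.76 (SE 0.14, adjusted p = 0.000625). Plod2, a lysyl hydroxylase of collagen cross-linking, had every female above every male, at 7.49 to 10.7 against 3.94 to 6.83 CPM and 0.79 (SE 0.15, adjusted p = 0.000909). Of 21 collagen chains 3 were higher in females and 1 in males. Col14a1, a collagen of the surface of fibrils, differed by 1.02 (SE 0.21, adjusted p = 0.00138), and Col4a4, of basement membranes, by -0.85 (SE 0.16, adjusted p = 0.000896). Among 9 tendon cell markers 3 were called, all higher in females. The keratan sulphate proteoglycan Kera ran from 8.44 to 15.2 CPM in females and from 0.948 to 8.67 in males (1.66, SE 0.30, adjusted p = 0.000466), Chad, chondroadherin, differed by 1.44 (SE 0.31, adjusted p = 0.00227) and Fmod, fibromodulin, by 0.85 (SE 0.22, adjusted p = 0.0115). The calls of these lists were fewer without males 1 and 4. The 12 fibroblast calls became 13 without the 3 males with high liver markers and 5 without males 1 and 4, and the 10 matrix calls became 11 and 5. The 4 collagen calls became 4 and 2, and the 3 tendon calls 3 and 2, with Fmod not called without males 1 and 4 (adjusted p = 0.134). With the adipocyte markers as a covariate there were 3 fibroblast, 1 matrix, 1 collagen and 1 tendon calls.

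Adipocyte markers were also called only towards females, 8 of 14, with a median of 0.70. Adiponectin (Adipoq) stood at 17, 31.7, 25.9, 25.2, 29.1, 41.7 and 24.3 CPM in the females and at 8.78, 11, 13, 13.4, 5.03, 25.3 and 27.5 in the males. Males 6 and 7 lay within the female range and the other 5 below it, and the difference was 1.12 (SE 0.27, adjusted p = 0.00734), with an adjusted p of 0.13 without males 1 and 4. Cfd, adipsin, ran from 93.2 to 222 CPM in females (median 129) and from 20.3 to 84.6 in males (median 46.4), with no overlap, at 1.5 (SE 0.24, adjusted p = 5.35e-05). Resistin (Retn) did not overlap either, at 9.69 to 18 against 2.85 to 7.83 CPM and 1.45 (SE 0.23, adjusted p = 4.67e-05). The adrenergic receptor gene Adrb3 differed by 2.44 (SE 0.49, adjusted p = 0.00139). The 8 calls became 7 without the 3 males with high liver markers and 4 without males 1 and 4. Summed over the 14 markers, levels ran from 3778 to 5730 CPM in females and from 1962 to 4624 in males. Car3, a carbonic anhydrase that muscle fibres express as well, made up most of that sum, at 3005 to 5069 CPM in females and 1416 to 4116 in males. Car3 was chosen once its values were known. As a covariate the mean log2 level of the 14 markers was used, with equal weights, not their sum. With this covariate 304 autosomal genes were called instead of 913, 264 of them shared. As 8 of the 14 markers were themselves called between the sexes, the covariate was tied to sex, and some calls would be lost for that alone. How far adipocytes account for the sex differences of other genes was not tested.

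**Figure D4:**
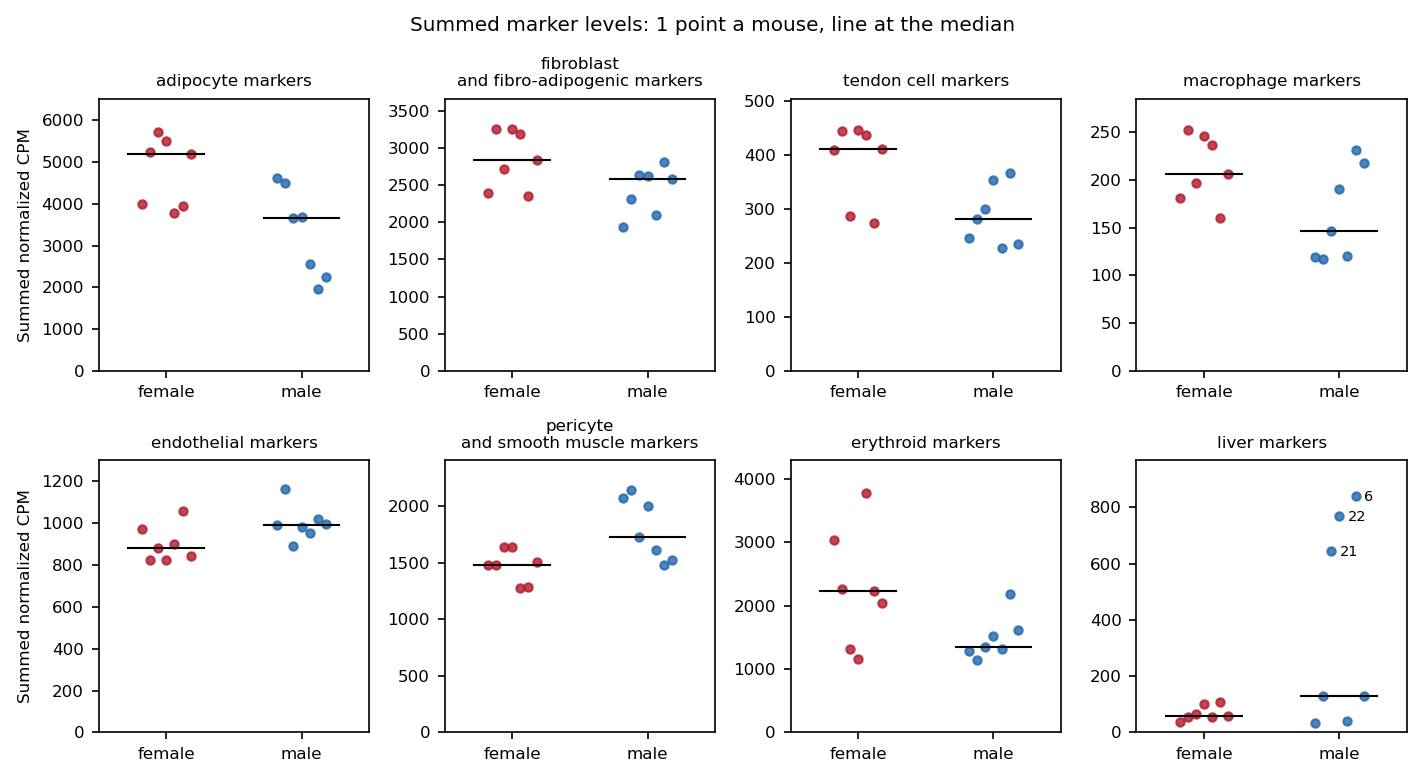
Summed normalized CPM (vertical axes, from 0) of 8 cell-type marker lists in each of the 7 females and 7 males, 1 point a mouse, with a line at the group median. The sexes overlap in every panel, and males 6, 21 and 22 stand at 643 to 838 CPM of liver markers with all other mice at 130 or less.

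Vessel-wall markers went the other way. Of 16 endothelial markers 4 were called, all higher in males, and of 12 pericyte and smooth muscle markers 3, again higher in males, with all 12 below 0 and a median of -0.24. Aqp1, the water channel of capillaries, ran from 111 to 163 CPM in females (median 121) and from 147 to 195 in males (median 165), at -0.35 (SE 0.09, adjusted p = 0.00866). Notch3, of mural cells, ran from 10.3 to 16.5 CPM in females and from 15.6 to 21.5 in males, at -0.43 (SE 0.10, adjusted p = 0.00566), and the pericyte gene Rgs5 differed by -0.26 (SE 0.07, adjusted p = 0.0117). Tagln, of smooth muscle, differed by -0.67 (SE 0.17, adjusted p = 0.0115). The 3 pericyte calls held whichever mouse was left out, and 1 of the 4 endothelial calls did. The 4 endothelial calls became 2 without the 3 males with high liver markers, where Aqp1 had an adjusted p of 0.0506, and 2 without males 1 and 4. With adipocyte markers as a covariate 0 endothelial markers and 1 pericyte marker were called by limma.

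Immune lists had few calls, and none of these held in all 14 fits without 1 mouse. Of 15 macrophage markers 3 were higher in females, with a median of 0.50. C1qc, a chain of complement C1q, ran from 11.8 to 26.4 CPM in females and from 5.68 to 17.1 in males, at 0.82 (SE 0.24, adjusted p = 0.0326), and was not called without female 2 or 22 or male 1, 2 or 4 (adjusted p up to 0.106). Without males 1 and 4 no macrophage marker was called, and without the 3 males with high liver markers 4 were. DESeq2 called 1 macrophage marker and the quasi-likelihood test 0. Of 24 interferon-stimulated genes 4 were higher in females, with 22 above 0 and a median of 0.35. Oasl2, an antiviral gene, ran from 2.98 to 4.66 CPM in females and from 1.05 to 2.79 in males, without overlap, at 1.05 (SE 0.27, adjusted p = 0.0143), and lost its call without male 1 (adjusted p = 0.0503). The 4 interferon calls became 1 without the 3 males with high liver markers and 1 without males 1 and 4, where Oasl2 had adjusted p-values of 0.0569 and 0.122. Of 19 antigen presentation genes 0 were called by limma, DESeq2 or the quasi-likelihood test and 3 had an unadjusted p under 0.05, with a median of 0.23. Its most abundant member, B2m, stood at 354 to 572 CPM in females and 218 to 501 in males (0.23, SE 0.13, adjusted p = 0.3).

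Liver markers had a median log2 fold change of -2.29 over 22 genes, the largest of any list but for the 2 insulin genes. The number of calls depended on the test: limma called 1, limma trend 8, DESeq2 18 and the quasi-likelihood test 19. Albumin (Alb) reached 208 CPM in a male and 15.3 in a female. The gene called by limma was haptoglobin (Hp), an acute-phase protein of liver and fat, at 3.62, 4.79, 6.04, 13.2, 3.57, 5.55 and 3.42 CPM in the females and 8.26, 12.5, 17.7, 23, 6.63, 24.2 and 15.3 in the males (-1.41, SE 0.29, adjusted p = 0.00161). Only the highest female, number 22, overlapped the male range. Without males 1 and 4, which had the least of these transcripts among the males, 19 liver markers were called by limma. Without males 6, 21 and 22 the count was 2. Erythroid markers had 0 calls by limma and DESeq2 among 6, 1 by the quasi-likelihood test and 3 with an unadjusted p under 0.05, with a median of 0.49 and sums of 1153 to 3770 CPM in females and 1141 to 2191 in males. Of 11 Schwann cell and nerve markers, and of 13 AU-rich element binding proteins, which belong to the class of HuR, 0 were called by limma, DESeq2 or the quasi-likelihood test. Their medians were -0.03 and -0.05, and 1 and 3 of them had an unadjusted p under 0.05.

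The remaining lists had few calls. Among 19 clock genes 3 were higher in males and none of these held in all fits without 1 mouse, with a median of -0.28. The clock calls became 1 and 1 without the males that stood apart. Of 21 immediate early genes 3 were higher in males, among them the flow-responsive endothelial factor gene Klf2, at 25.1 to 41.4 CPM in females and 36.7 to 65.8 in males (-0.57, SE 0.13, adjusted p = 0.00539). The 3 immediate early calls became 3 and 1. Of 25 heat shock and chaperone genes 1 was higher in females and 2 in males; the cochaperone Dnajb5 had every male above every female, at 146 to 223 against 112 to 133 CPM and -0.56 (SE 0.10, adjusted p = 0.000507). Brown adipocyte markers had 1 call of 4, Dio2, which activates thyroid hormone, at 7.99 to 13.3 CPM in females and 2.55 to 7.55 in males (1.15, SE 0.20, adjusted p = 0.000217). Of 6 brain markers 1 was called, Camk2a (-0.33, SE 0.07, adjusted p = 0.00149), a kinase that muscle expresses too. Camk2a went against the rest of its list, where 5 of the 6 lay above 0 with a median of 1.31. The 4 lymphocyte and other leukocyte markers had 1 call, the mast cell protease gene Cpa3 (1.27, SE 0.35, adjusted p = 0.0206), not called without male 4 (adjusted p = 0.0923), and no call was left without males 1 and 4.

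In the running controls 1181 autosomal genes (9.04%) were called between females and males, and 393 of them were among the 913 of the knockout mice, that is, 43% of the knockout calls and 33.3% of the control calls. No mouse was shared between the genotypes, and both comparisons came from 1 fit. Of the 913 genes 94.2% had the same sign in the controls. Amd1 differed by -3.11 (adjusted p = 6.5e-13) in the controls, Smox by -2.13 (adjusted p = 4.28e-08), Mylk4 by -1.14 (adjusted p = 9.07e-06) and Grb10 by 0.96 (adjusted p = 9.83e-10), all in the direction of the knockout mice. Fibroblast and tendon markers held 3 and 0 calls in the controls. Such a contrast in calls is no difference by itself, and the test of the difference between the genotypes called 0 (0%) of the 13058 autosomal genes with limma, where 1139 had an unadjusted p under 0.05. The genes with the smallest p in that test were Ins2, Rasd2 and Ins1, each at an adjusted p of 0.162. Rasd2, a small GTPase, ran from 15.5 to 43 CPM in knockout females and from 38.3 to 68.8 in knockout males (-0.94, SE 0.17, adjusted p = 0.000316), and differed by 0.15 (adjusted p = 0.65) in the controls. DESeq2 called 3 genes, Hamp, 5830487J09Rik and Gm45220, limma trend called Ins2, and the fit of all 56 mice called Ins1 and Ins2. Running control male 28 was the only control with insulin reads at the level of the knockout males. Without this mouse limma called Ins1 and Ins2 at an adjusted p of 0.015. As it stands out by its counts of these same genes, that fit is no test of the genotypes.

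Between the locked knockout females and males 2674 of 13813 autosomal genes (19.4%) were called, in a fit of all 56 mice. That fit called 765 of the 13813 between the running knockout females and males. Of the 913 running calls from the fit of 28 mice, 59.1% were among the locked calls. Of the locked calls 20.2% were among the 913, and 91% of the 913 had the same sign. Ttll7 (-1.17), Amd1 (-2.70), Smox (-2.16), Actc1 (2.07), Musk (-1.43) and Sesn1 (1.15) were all called in the locked mice in the direction of the running mice. The test of the difference between running and locked knockout mice called 185 genes (1.34%), 98 with a larger female-minus-male value in running mice and 87 with a smaller one. Of these 185 genes 157 were called in the locked mice and 30 in the running mice by the same fit. The count rested on single mice, with 109 to 299 calls over 28 fits without 1 mouse. The genes with the smallest adjusted p were Phkg1, the muscle catalytic subunit of phosphorylase kinase, Helz, Ppargc1b, a coactivator of mitochondrial and fat oxidation genes, Camk2b, a calcium-dependent kinase, and 1810022K09Rik. In the locked mice Phkg1 differed by -0.49 (adjusted p = 3.99e-07), Ppargc1b by -0.48 (adjusted p = 0.000189) and Camk2b by -0.67 (adjusted p = 9.8e-08), all higher in males. In the running mice the same genes differed by 0.08, 0.26 and 0.03, and none was called.

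Cytosolic ribosomal protein genes were the list with most calls in that test, 19 of 73, and all 19 were lower in running than in locked mice for the female-minus-male value. In locked knockout mice 57 of the 73 were called, all higher in females, with a median of 0.38. In running knockout mice 7 of the 73 were called, all higher in females, with a median of 0.10. That was 9.59% of them, against 6.99% of all autosomal genes tested. Rps20 differed by 0.42 in locked and -0.07 in running mice, and the difference between them was -0.49 (SE 0.10, adjusted p = 0.00759). Rplp0, the stalk protein, had the smallest adjusted p of the 7 genes called in running mice, at 181 to 217 CPM in females and 145 to 197 in males and 0.32 (SE 0.07, adjusted p = 0.00261). Of this list 1 gene was called in running mice without the 3 males with high liver markers and 5 without males 1 and 4. The matrix remodelling genes, with 24 of 31 called higher in females in locked mice and a median of 0.64 there, had 1 call in the test of the difference.

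**Figure D5:**
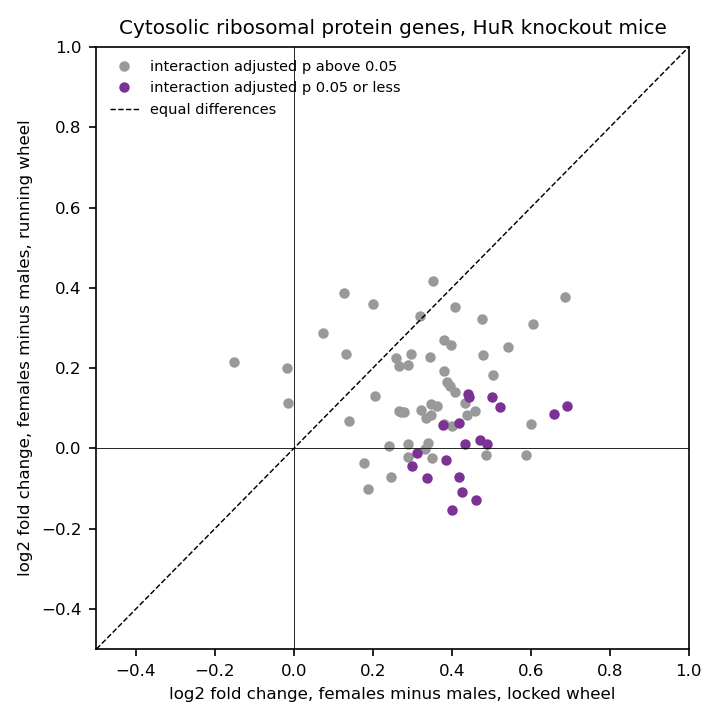
Log2 fold change of females minus males in running HuR knockout mice (vertical axis) against that in locked HuR knockout mice (horizontal axis), 1 point for each of the 73 cytosolic ribosomal protein genes, from the fit of 56 mice. Purple marks the 19 genes for which the difference between the wheels was called, and the dashed line is equality; all 19 purple points lie below it and to the right of 0.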

How the data were processed

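RNA-seq of gastrocnemius covered 56 mice in 8 groups by sex, genotype and wheel, with 7 mice in each. The counts deposited by the authors were whole reads for each gene, without normalization. The lowest count of a gene summed over the mice was 168. The submitters' processing notes name the builds GRCm38 and mm10, R 4.0.3 and edgeR 3.38.4; the aligner was not given in the sources used here. The study's methods describe stranded total RNA libraries whereas the labels name a kit that primes at transcript 3′ ends, and the counts do not settle which was used.

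Groups came from the labels. Symbols and coordinates were taken from GENCODE M21 (15503 of 15539 genes matched), promoter windows from RefSeq. Genes were filtered with filterByExpr of edgeR (version 4.0.16, minimum count 10), scaled by TMM and tested with limma (version 3.58.1) after voom in R 4.3.3, over the 28 running mice for the main comparison and its interaction with genotype and over all 56 mice for the locked mice and the interaction with the wheel. Fold changes were females minus males, p-values were adjusted by Benjamini-Hochberg over all genes tested, and a gene was called at 0.05 or less. The study's methods name TMM in edgeR and limma. Whether mice of a group were littermates was not given, so p-values measure the spread between these mice. Total counts were 8038666 to 16690059 in the 14 mice, and low genes carry more counting error. On simulated counts for the main comparison (13380 genes) 74.2% of 198 changed genes were recovered, with 6 false calls among 153. Recovery was 54.8% for genes changed 1.5-fold, 80% for 2-fold and 94% for 4-fold.

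The members and the gene lists were chosen with earlier results of these data known. Named genes were the 12 with the largest difference in each direction among called genes without overlap and with a mean of 10 or more counts, and up to 4 called members of each list in each direction (for a list with no call, its 2 most abundant members), with the leading genes of each interaction; where a call failed when 1 mouse was left out, the member was mostly given by count alone. Other genes in the text were picked with their values known.

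The main comparison was repeated with limma trend, the quasi-likelihood test of edgeR and DESeq2 (version 1.42.0), with size factors or upper-quartile scaling, with sample weights, with other filters, a 1.5-fold threshold, marker covariates, fits of fewer or more mice, a replicate block and each mouse left out. The fits without males 6, 21 and 22 and without males 1 and 4 were chosen after seeing the data. A result on 1 gene is not reported here.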

Additional observations from a re-analysis of the deposited data

Results flagged for a closer look

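Single values far from the rest of their group were looked for in 282 sets of 7 mice, on log2(CPM + 0.5), by the gap to the nearest mouse as a share of the group's range. The share passed Dixon's critical value in 13 sets, which is no more than the 1 in 20 or so that chance flags. Among the females, female 2 stood above the others for B2m (572 CPM, 0.725 of the range), C7 (0.921 CPM, 0.646) and Mrln (140 CPM, 0.569), and female 22 for Col4a4 (6.07 CPM, 0.595) and Hp (13.2 CPM, 0.592). Female 22 stood below the others for Dok7 (6.07 CPM, 0.689), female 8 for Pygm (3951 CPM, 0.643) and 5830487J09Rik (0.521 CPM, 0.624), and female 3 above them for Ins1 (0.218 CPM, 0.583). Among the males, male 7 stood above the others for the summed lymphocyte and other leukocyte markers (64 CPM, 0.675) and for Ncoa3 (20 CPM, 0.638) and below them for Cuzd1 (0 CPM, 0.685), and male 6 above them for Cxcl14 (48 CPM, 0.586).

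The sex difference differed between running and locked knockout mice for 185 autosomal genes by the test of the interaction in limma, the genes below among them. The interaction, running minus locked, was -6.01 for Ins1 (SE 1.17, adjusted p = 0.00722) and -5.94 for Ins2 (SE 1.32, adjusted p = 0.0111). For Csrp3 it was -1.75, for Tagln -1.09 and for Mrln -0.53. In the locked mice the female-minus-male values of these 3 genes were 0.72, 0.42 and 0.09, and in the running mice they were -1.03, -0.67 and -0.44. It was above 0 for Ppargc1b (0.74), Camk2b (0.70), Helz (0.62) and Phkg1 (0.58), and below 0 for 1810022K09Rik (-0.70). For the ribosomal protein gene Rps20 it was -0.49.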

How the results depend on the processing

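The count of 913 autosomal genes stayed within 1.5 times under the other scalings, tests and filters, with 1112 calls by DESeq2 and 976 by the quasi-likelihood test, and between 643 and 1010 when 1 mouse was left out. It was 367 at 1.5-fold or more, 304 with adipocyte markers as a covariate (39.1% higher in females, against 44.2%), and 568 without males 1 and 4 (34.9%). A paired analysis had only 8 mice whose number occurs in both sexes: with the replicate block 346 genes were called, and 126 in the same 8 mice without the block. The numbers are not known to pair mice, and the correlations of same-numbered mice (0.012 to 0.27) were not all over 0.1. Pairs with different numbers had a median of -0.027 and reached 0.294. The interaction with genotype, 0 calls, gave 3 calls with DESeq2, 1 with limma trend, 2 with all 56 mice and 0 to 2 when 1 mouse was left out. The 185 calls of the interaction with the wheel became 317 with sample weights, 97 at 1.5-fold or more, 73 with only the 28 knockout mice and 77 without males 6, 21 and 22. They ranged from 109 to 299 when 1 mouse was left out: 285 and 299 without locked females 13 and 34, 113 without locked females 14 and 17 each, 111 and 119 without running females 10 and 2, 122 without locked males 15 and 9 each, 109 without locked male 8, and 120 and 113 without running males 2 and 6. The cause of these changes was not tested. Of the named genes called between running knockout females and males, Adipoq changed sign, at -0.0547 with adipocyte markers as a covariate, of which it is itself a member. Some named genes that were not called, such as B2m (-0.029 with that covariate), changed sign as well. Liver markers had 1 call by limma and 18 by DESeq2. Depth limits the genes at low levels, some with 0 counts in a female.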
